A study of Mus musculus with 6 samples.

Results

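Galanin and 8 genes known from neuroendocrine cells were followed across lung cells of Bmi1 mutant and wild-type mice. The 9 genes are Gal, Resp18, Calca, Chga, Chgb, Scg2, Scg5, Syp and Uchl1, and their probe sets were taken by gene symbol from the platform annotation. 8 of the 9 genes had a probe set annotated with that symbol alone, 9 probe sets in all, out of 18193 genes with such a probe set. Calca, which encodes calcitonin gene-related peptide, had none in the annotation used and was not analysed here. Gal and Resp18 were chosen from their differences between the genotypes on these 6 arrays, and the other members because they are known from the same kind of cell, with their values on these arrays already known. The members' differences are therefore given as a description. Where the fit across all genes called a member, the call is stated, but it is no independent test of a gene chosen from these values.

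RNA came from cells freshly isolated from lungs of female mice aged 4 months on a mixed Bl6/129 background. The study compared 3 arrays of Bmi1 mutant cells, whose genotype is labelled Bmi1 null, with 3 arrays of Bmi1 wild-type cells. In both genotypes, live cells were sorted as negative for CD31 and CD45, markers of endothelial and hematopoietic cells, and their RNA was amplified before hybridization to Affymetrix mouse genome arrays. The labels call the arrays biological replicates but do not say whether each holds 1 mouse or a pool, nor which part of Bmi1 is missing in the mutant. The p values thus cover the spread among these arrays, which may be partly technical.

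Pulmonary neuroendocrine cells are rare cells of the airway epithelium, single or in clusters called neuroepithelial bodies, that sense the airway and release peptides and amines from dense-core granules. Granins such as chromogranins A and B help to form these granules, prohormone convertases cut the peptide precursors inside them, and vesicle proteins such as synaptophysin take part in release. Galanin is a neuropeptide that acts through G protein-coupled receptors, and it is made by neurons and by endocrine cells outside the lung as well.

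The values are probe-set signals on a linear scale with every array scaled to 1 mean by the authors, and between 47.7% and 50.3% of probe sets on an array lay under a signal of 100. Bmi1 itself did not read lower in the mutant-labelled arrays, and its brighter probe set gave 1276, 1498 and 1565 in mutant-labelled arrays, against 996, 980 and 1164 in wild type. The direction of every difference therefore rests on the labels, and the arrays are called mutant-labelled here. Precision is limited by the number of arrays. Ms4a1, a B cell gene that the gate against CD45 was meant to leave out, read 123 ± 17.3 in mutant-labelled cells and 1444 ± 170.5 in wild type (SD, n = 3 each), and other markers of blood cells follow after the members.

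The sequence just upstream of the start of Gal and of Resp18, the members with the greatest differences, is shown beside that of Chgb and Scg2, granins whose arrays overlapped between genotypes. Each run holds the 250 bases before the RefSeq start on GRCm38.p6, from 5′ to 3′ on the strand of the gene. Capitals mark TGACGTCA, the cAMP response element known from many neuropeptide and granin genes, and CAGCTG, an E-box core bound by basic helix-loop-helix factors.
Gal (chr19:3414545-3414794, minus strand): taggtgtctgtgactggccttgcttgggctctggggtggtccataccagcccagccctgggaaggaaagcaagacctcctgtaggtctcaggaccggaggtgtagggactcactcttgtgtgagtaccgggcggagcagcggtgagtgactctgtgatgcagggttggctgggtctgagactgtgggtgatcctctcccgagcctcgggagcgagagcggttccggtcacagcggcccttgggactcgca
Resp18 (chr1:75278416-75278665, minus strand): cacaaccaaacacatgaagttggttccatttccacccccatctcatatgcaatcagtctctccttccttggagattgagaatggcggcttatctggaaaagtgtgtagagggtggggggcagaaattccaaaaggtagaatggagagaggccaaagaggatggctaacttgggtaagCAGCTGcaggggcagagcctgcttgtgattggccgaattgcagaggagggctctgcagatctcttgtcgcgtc
Chgb (chr2:132781392-132781641, plus strand): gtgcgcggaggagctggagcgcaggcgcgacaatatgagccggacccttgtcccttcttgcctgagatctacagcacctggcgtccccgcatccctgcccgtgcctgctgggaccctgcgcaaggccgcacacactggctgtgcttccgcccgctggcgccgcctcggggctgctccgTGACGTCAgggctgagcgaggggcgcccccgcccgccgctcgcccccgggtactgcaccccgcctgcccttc
Scg2 (chr1:79440027-79440276, minus strand): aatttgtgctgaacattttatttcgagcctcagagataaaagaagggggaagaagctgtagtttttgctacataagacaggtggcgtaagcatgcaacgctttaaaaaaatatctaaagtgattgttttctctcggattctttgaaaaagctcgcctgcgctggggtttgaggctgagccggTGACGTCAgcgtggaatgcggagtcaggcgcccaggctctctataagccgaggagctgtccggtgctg
Both motifs read the same on either strand and do not overlap each other in these runs. TGACGTCA began 72 bases before the start of Chgb and 68 before that of Scg2, and 1.55% of 32851 upstream runs of the same length held it. CAGCTG began 73 bases before the start of Resp18, and 13.0% of all runs held it. Chga, whose run is not printed, held CAGCTG at 179 and at 116 bases before its start. Neither motif was found in the run of Gal, nor in those of Scg5, Syp and Uchl1. Only exact matches were searched, so near variants of TGACGTCA, such as tgacgtaa in the run of Chga, were not counted.

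Gal, the precursor of galanin, had the greatest difference of the members with the offset used here. It read 71.0, 99.1 and 81.1 in the mutant-labelled arrays, against 562, 619 and 864 in wild type. Every mutant-labelled array lay far below every wild-type array, and the brightest wild-type array was replicate 3. The means were 83.7 ± 14.2 in mutant-labelled cells and 681 ± 160 in wild type (SD, n = 3 each), so the mean signal was 8.14 times higher in wild type. On the scale log2(signal + 16), used for all differences here, Gal differed by -2.79 ± 0.22 (mutant-labelled minus wild type, limma's moderated SE). In cells sorted in bulk, fewer cells of a type and less RNA per cell cannot be told apart.

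Resp18, an endocrine protein of the secretory pathway, lay in the same direction but at a far lower signal. It read 15.2, 1.22 and 12.9 in mutant-labelled arrays, against 71.8, 53.7 and 81.4 in wild type. The genotypes did not overlap, and wild-type replicate 3 again gave the highest signal. All 6 values were under 100. The log2 difference was -1.75 ± 0.27 (SE, n = 3 each), and its size depended on the offset, as for any gene this dim. With an offset of 1 it was -3.12, against -3.00 for Gal, and with an offset of 64 it was -0.85, against -2.32 for Gal.

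Chga, Chgb and Scg2, the granins that build dense-core granules, did not separate the genotypes. Chga, chromogranin A, read 18.7, 30.7 and 5.10 in mutant-labelled arrays, against 34.6, 4.47 and 12.4 in wild type. Chgb, chromogranin B, read 59.7, 56.2 and 70.7 in mutant-labelled arrays, against 177, 51.1 and 66.6 in wild type. For both genes the arrays of the genotypes overlapped, and the highest value of all was that of wild-type replicate 1.

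Scg2, secretogranin II and the precursor of secretoneurin, had the same shape. It read 10.8, 16.8 and 2.54 in mutant-labelled arrays, against 28.4, 1.90 and 18.7 in wild type. The log2 differences were 0.071 ± 0.41 for Chga, -0.39 ± 0.39 for Chgb and -0.25 ± 0.38 for Scg2 (SE, n = 3 each). None of the 3 was clearly larger than its own standard error. Without wild-type replicate 1 the differences were 0.43 for Chga, 0.067 for Chgb and 0.026 for Scg2, so the negative sign of Chgb and Scg2 rested on that array. All 7 measured fibroblast markers also had their highest wild-type signal on replicate 1, and their part in these values was not tested.

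Scg5, which encodes the chaperone of prohormone convertase 2, lay the other way from Gal. It read 38.4, 56.1 and 34.3 in mutant-labelled arrays, against 31.3, 4.36 and 3.51 in wild type. The groups did not overlap, but wild-type replicate 1 came close to the lowest mutant-labelled array, and all 6 values were low. The log2 difference was 1.13 ± 0.37 (SE, n = 3 each), with a range from 0.49 with an offset of 64 to 2.22 with an offset of 1.

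Syp, synaptophysin of small vesicles, was the other member with a mean signal above 100 in either genotype. Its brighter probe set read 230, 276 and 224 in mutant-labelled arrays, against 413, 446 and 379 in wild type. The groups did not overlap, and the mean signal was 1.70 times higher in wild type, a log2 difference of -0.73 ± 0.17 (SE, n = 3 each). The second probe set of Syp did not show this difference. It read 11.3, 0.29 and 0.49 in mutant-labelled arrays, against 14.4, 0.24 and 0.64 in wild type, near the bottom of the scale in both genotypes.

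Uchl1, the ubiquitin hydrolase also known as PGP9.5 that marks neurons and neuroendocrine cells, overlapped between genotypes. It read 136, 64.2 and 77.9 in mutant-labelled arrays, against 57.1, 51.2 and 80.8 in wild type. The log2 difference was 0.42 ± 0.28 (SE, n = 3 each). It was 0.15 without mutant-labelled replicate 1, the array with the highest value.

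**Figure D1:**
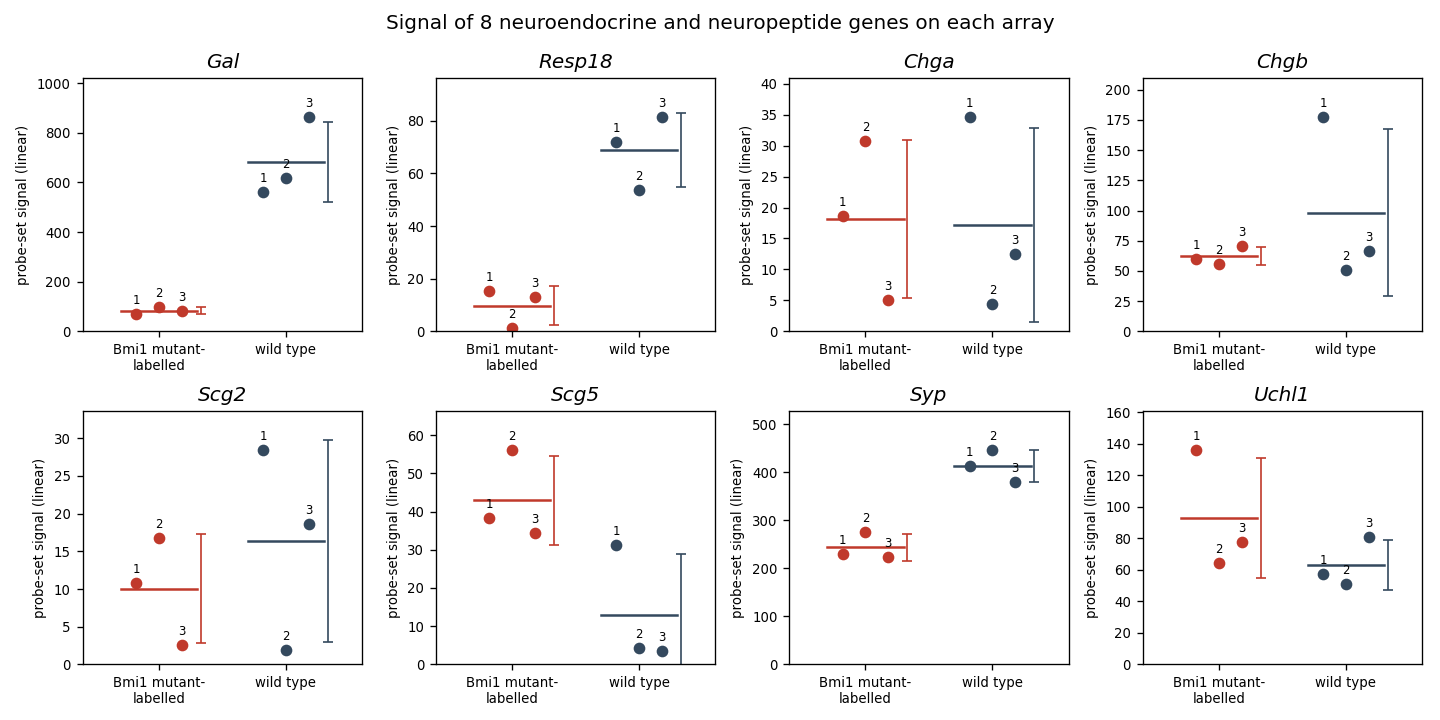
Probe-set signal on a linear axis from 0 for the 8 measured genes, one panel a gene, with points for the arrays (numbers are replicates), a line at the mean and a bar of 1 SD for Bmi1 mutant-labelled (left) and wild-type arrays (right). Gal and Resp18 lie lower in all 3 mutant-labelled arrays, Syp differs by less, Scg5 lies the other way, and Chga, Chgb, Scg2 and Uchl1 overlap, while the Scg5 wild-type bar runs off the axis at 0.

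Set side by side, 5 of the 8 members had a difference below 0, where 49.3% of all genes did, and their median was -0.32, against 0.0059 over all 18193 genes. Genotypes were apart on all arrays in 3 members with the mutant-labelled arrays below (Gal, Resp18 and Syp) and in 1 with them above (Scg5), while 10.0% of all genes lay below and 10.4% above in this way. Gal and Resp18 were called lower by the limma fit across all genes at a Benjamini-Hochberg adjusted p under 0.05, and 0 members were called higher. Over all genes 0.511% were called lower and 0.412% higher. Since Gal and Resp18 were chosen from this contrast, and the group with it known, nothing is read from these counts. Among 13 other settings in which Resp18 was tested it was called in 3, and leaving out any one of the 6 arrays ended its call. Gal was called in 12 of 14 other settings. Its call ended without wild-type replicate 2 and in a fit blocked on replicate number. Only Gal and Syp had a mean signal of 100 or more over all arrays, and the dim signals of the other 6 limit what their differences can show.

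The profile of Gal was compared with each other gene by the root mean square difference of gene-centred log2 values over the 6 arrays. A distance of 0 would be a profile identical in both shape and size. The values were not scaled, so the distance grows with unlike size as well as unlike shape, and it depends on the offset. Distances and ranks are given for the offset used here only, and likeness of shape alone was not tested. Of the members, Resp18 was the nearest, at 0.66, which placed it at rank 87 among the 18185 genes outside the group. Syp followed at 1.06 and rank 661, and the other members lay between ranks 4984 (Chgb) and 17793 (Scg5). Seen from Resp18, Syp (0.66, rank 857) and Gal (0.66, rank 905) were the nearest members. Gal and Resp18 were chosen from the same arrays, and the distances are a description.

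The 5 genes nearest to Gal came from other families. They were Ighv14-2, a variable segment of the immunoglobulin heavy chain (0.23), Acaa1b, a thiolase of peroxisomes (0.29), Clec1b, a C-type lectin receptor (0.31), the keratin gene Krt79 (0.31) and Vstm2a (0.33). Krt79 read 171, 477 and 272 in mutant-labelled arrays, against 2053, 1842 and 3058 in wild type. All 5 were called lower in the limma fit. Nearest to Resp18 were Kcnf1, a potassium channel subunit (0.17), Nrp (0.22) and Cidec, a lipid droplet protein (0.24), of which Kcnf1 and Cidec were called lower and Nrp was not (log2 difference -1.76, limma adjusted p = 0.0762).

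**Figure D2:**
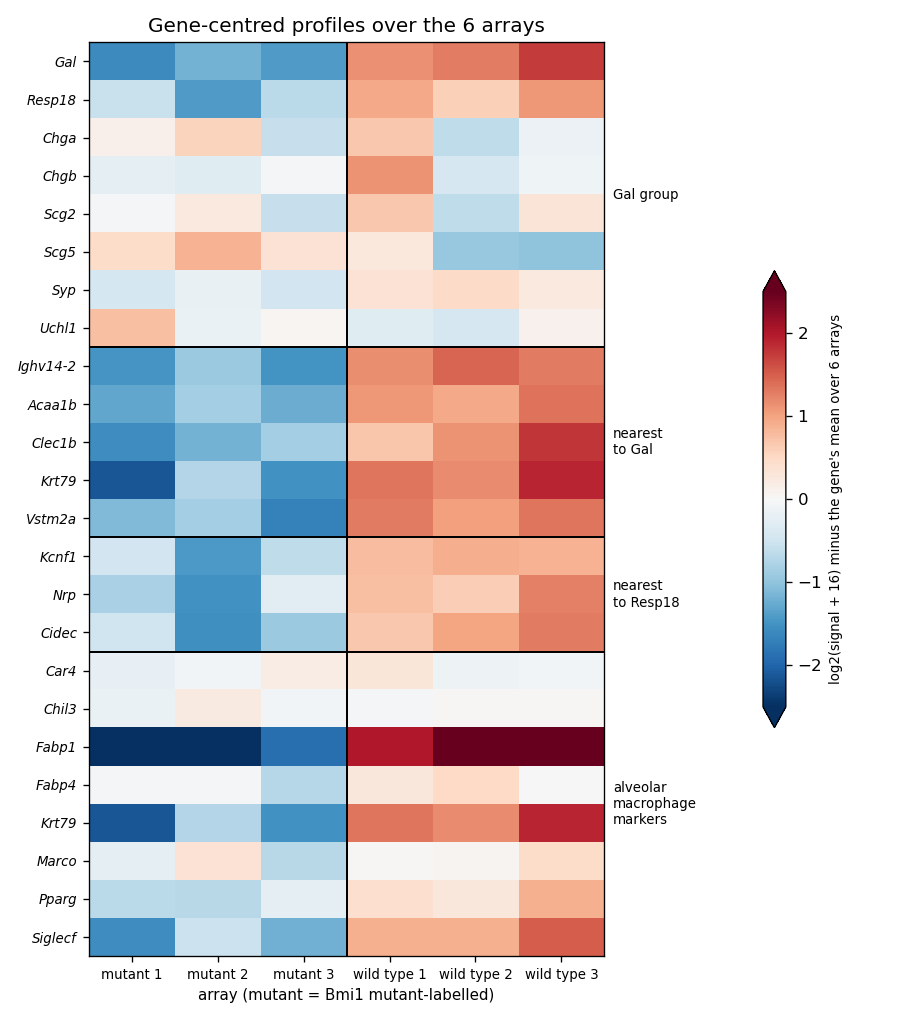
Log2(signal + 16) minus the mean of each gene over the 6 arrays (colour scale, whose pointed ends mark values beyond 2.5 up or down), for the 8 members, the genes nearest to Gal and to Resp18, and 8 alveolar macrophage markers, with Bmi1 mutant-labelled arrays left of wild-type arrays. Gal and Resp18 show a blue-to-red step, which the granins Chga, Chgb and Scg2 lack. The genes nearest to Gal and to Resp18 share it by construction, as they were picked for likeness on these arrays, and Krt79 appears in 2 blocks.

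Of 102 other measured genes in 7 lists of neuroendocrine and neuropeptide biology, limma called 1 higher (Nkx2-2) and 1 lower (Qpct), a share of 1.96% against 0.923% of all genes in either direction. These lists, Nkx2-2 included, were chosen with earlier results of these data known. The calls, their p values and the share are therefore a description and no independent test. The median log2 difference of the 102 was 0.12, against 0.0059 over all genes, and 60 of the 102 had means under 100 in both genotypes. In 8 genes the mutant-labelled arrays lay below and in 13 above all wild-type arrays, together 20.6%, against 20.5% of all genes.

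Nkx2-2, a transcription factor of neural and endocrine progenitors, rose in the mutant-labelled arrays. It read 666, 836 and 934 in mutant-labelled arrays, against 26.7, 17.8 and 19.9 in wild type, a log2 difference of 4.46 ± 0.19 (SE, n = 3 each, limma adjusted p = 0.00156). The groups lay far apart, in the opposite direction to Gal. Of the 15 measured regulators of neuroendocrine cells it was the only 1 called, and 2 had an unadjusted p under 0.05, against 14.5% of all genes. Insm1, a zinc finger factor of neuroendocrine differentiation, read 108, 248 and 107 in mutant-labelled arrays, against 127, 57.6 and 109 in wild type, and overlapped. The repressor Rest, which keeps neuronal and neuroendocrine genes silent in other cells, differed by 0.21 (limma adjusted p = 0.611). St18, a zinc finger factor, had the next smallest p at a low signal (log2 difference 0.92, limma adjusted p = 0.0647).

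Qpct encodes glutaminyl cyclase, which modifies the first residue of peptide hormones, and it fell in the mutant-labelled arrays. It read 207, 326 and 215 in mutant-labelled arrays, against 740, 696 and 850 in wild type, a log2 difference of -1.58 ± 0.22 (SE, n = 3 each, limma adjusted p = 0.0324). The groups did not overlap. The call was lost in 5 of 6 fits that left out an array (limma adjusted p of 0.0763 to 0.134 in those 5), all but the one without mutant-labelled replicate 2. Of the 6 measured enzymes of peptide processing it was the only 1 called, and 2 had an unadjusted p under 0.05, against 14.5% of all genes. The amidating enzyme Pam differed by 0.61 (limma adjusted p = 0.241) and the convertases Furin by 0.44 and Pcsk5 by 0.67, without a call. Pcsk1, the convertase of the regulated pathway, read 48.4, 138 and 65.5 in mutant-labelled arrays, against 124, 114 and 125 in wild type, and overlapped. Pcsk2 was not analysed here.

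The other measured granin family genes, Scg3, Vgf and Pcsk1n, had means under 100 in both genotypes and were not called by limma, nor did any have an unadjusted p under 0.05. Their log2 differences were 0.39, 0.54 and 0.24. Like Chga, Chgb and Scg2, all 3 overlapped between genotypes.

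Of 30 measured precursors of other neuropeptides 0 were called by limma, 4 had an unadjusted p under 0.05, against 14.5% of all genes, and 22 of the 30 had means under 100 in both genotypes. Grp, gastrin-releasing peptide, a product of neuroendocrine cells in human lung, had the lowest p of them. It read 12.2, 41.3 and 15.5 in mutant-labelled arrays, against 220, 65.9 and 153 in wild type. The groups did not overlap, but wild-type replicate 2 lay near mutant-labelled replicate 2, and the log2 difference was -2.0 ± 0.44 (SE, n = 3 each, limma adjusted p = 0.106). Ghrl, the ghrelin precursor, differed by -0.44 (limma adjusted p = 0.292). Penk, the enkephalin precursor, read 463, 835 and 322 in mutant-labelled arrays, against 325, 244 and 269 in wild type (limma adjusted p = 0.340). Pyy, the precursor of peptide YY, differed by 1.07 (limma adjusted p = 0.273) at signals under 100.

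The receptors on which galanin and calcitonin gene-related peptide act gave 0 calls by limma among 7 measured genes, of which 2 had an unadjusted p under 0.05, against 14.5% of all genes. The galanin receptors read low: Galr1 read 12.3, 1.09 and 4.34 in mutant-labelled arrays, against 11.2, 5.39 and 20.3 in wild type, and Galr2 read 12.3, 25.6 and 26.9 in mutant-labelled arrays, against 11.0, 4.39 and 3.91 in wild type. Galr3 was not analysed here. Calcrl, the receptor of calcitonin gene-related peptide and adrenomedullin, read 5373 ± 553 in mutant-labelled cells and 5531 ± 1103 in wild type (SD, n = 3 each). Its partner Ramp2 read 3687 ± 723 in mutant-labelled cells and 3686 ± 1167 in wild type. Both are known from endothelial cells, which the gate was meant to remove. Ramp1 differed by -0.45 (limma adjusted p = 0.524) and Ramp3 by -0.75 (limma adjusted p = 0.205).

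Among 24 measured genes of synaptic and dense-core vesicles 0 were called by limma, 5 had an unadjusted p under 0.05, against 14.5% of all genes, and 16 had means under 100 in both genotypes. Syn1, synapsin I of synaptic vesicles, read 51.3, 36.8 and 72.4 in mutant-labelled arrays, against 108, 168 and 180 in wild type (log2 difference -1.28, limma adjusted p = 0.0930). Its groups did not overlap, in the direction of Syp. Ptprn and Ptprn2, which encode granule membrane proteins of endocrine cells, and Rph3a, a Rab3 effector, lay the other way, with log2 differences of 1.36, 1.37 and 1.43 and limma adjusted p of 0.111 to 0.142. The signals of these 3 genes were all under 100. Of 17 other genes known from neuroendocrine cells 0 were called by limma and 2 had an unadjusted p under 0.05, against 14.5% of all genes. Slc18a2, the vesicular monoamine transporter of neurons, neuroendocrine cells and mast cells, had the smallest p. It read 225, 280.5 and 300 in mutant-labelled arrays, against 412, 542 and 495 in wild type (log2 difference -0.81, limma adjusted p = 0.119). The other of the 2 was Ncam1, which lay higher on every mutant-labelled array (log2 difference 0.61, limma adjusted p = 0.340). Of the 17 genes, 3 lay above in this way (Ncam1, Slit2 and Cd24a) and 1 below (Slc18a2), against 10.4% and 10.0% of all genes.

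**Figure D3:**
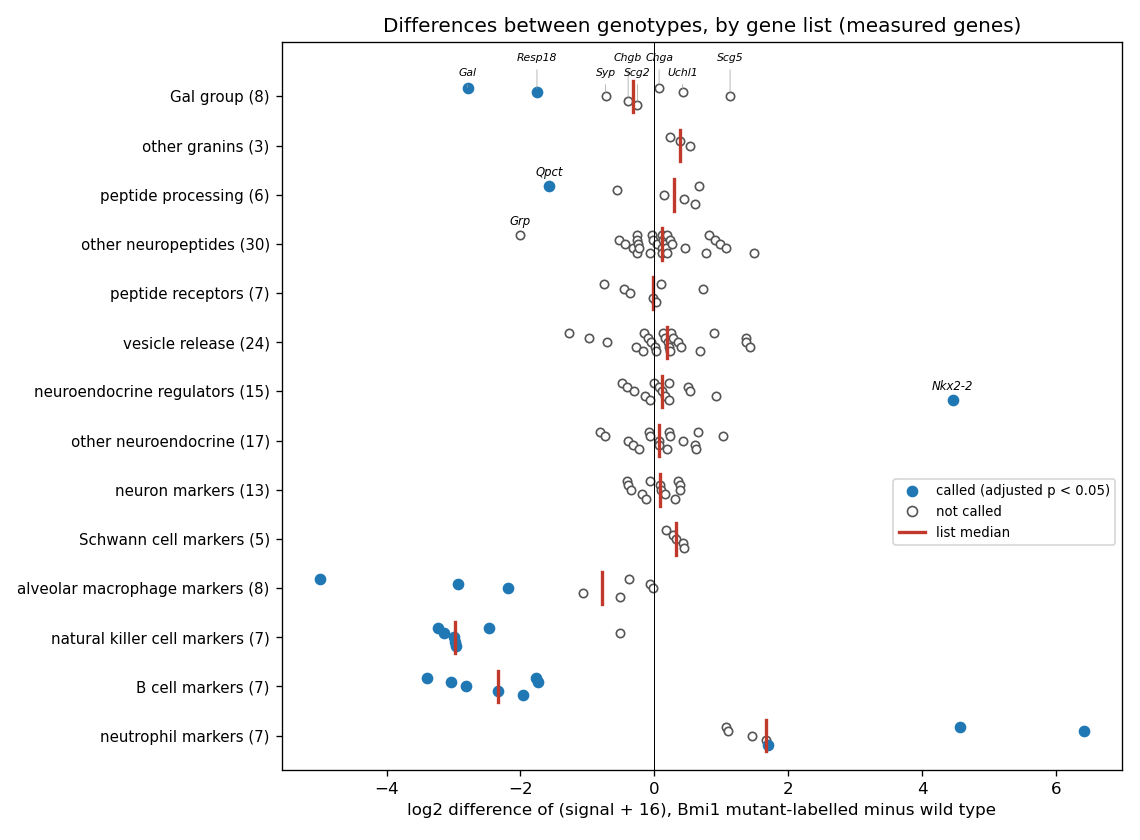
Log2 difference of (signal + 16), Bmi1 mutant-labelled minus wild type, of each measured gene (points) by list, with the number of genes in brackets, filled points for genes called by limma at an adjusted p under 0.05 and a red line at the list median. Medians of the other neuroendocrine lists run from -0.027 (peptide receptors) to 0.39 (other granins), with Qpct and Nkx2-2 as their called genes. Markers of natural killer and B cells lie left and those of neutrophils right.

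Markers of other cells also differed between the genotypes. Of 8 measured alveolar macrophage markers limma called 3 lower (Fabp1, Krt79 and Siglecf) and 0 higher, against 0.511% and 0.412% of all genes. An unadjusted p under 0.05 was found for 4 of the 8, against 14.5% of all genes. Their summed signal ran from 31087 to 39694 in mutant-labelled arrays, against 46745 to 54166 in wild type. Siglecf, a lectin of alveolar macrophages and eosinophils, read 580, 1188 and 742 in mutant-labelled arrays, against 3205, 3236 and 4957 in wild type. In 6 of these 8 markers the brightest wild-type array was replicate 3, as it was for Gal and Resp18. The same held for 3 of 4 type 2 cell markers and 36 of the 102 neuroendocrine list genes. It held for 0 of 7 natural killer cell markers and 0 of 7 B cell markers, and the share over all genes was not computed. The bright macrophage marker Chil3 differed by -0.015 (limma adjusted p = 0.979), and 5 of the 8 did not overlap between genotypes, against 20.5% of all genes. All 8 differences lay below 0, with a median of -0.79, and the summed signals of the list did not overlap either. Median centring moved every difference up by 0.095, which put Chil3 at 0.080 and also took Car4, at -0.068 before, above 0.

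Of 7 measured natural killer cell markers 6 were called lower by limma (Eomes, Gzma, Klra7, Klra8, Klre1 and Ncr1), with a summed signal from 1917 to 3647 in mutant-labelled arrays, against 10438 to 15342 in wild type. All 7 measured B cell markers were called lower (Cd22, Cd79a, Cd79b, Cr2, Fcrla, Ms4a1 and Pax5), with a summed signal from 1060 to 1399 in mutant-labelled arrays, against 5698 to 7338 in wild type. Of 7 measured neutrophil markers 3 were called higher (Mmp8, Stfa3 and Stfa2l1) and 0 lower. S100a8, S100a9, Cxcr2 and Csf3r were not called (limma adjusted p of 0.0899 to 0.255). The summed signal of the 7 ran from 21913 to 54573 in mutant-labelled arrays, against 10191 to 14137 in wild type. All 7 measured markers of each of these 3 lists had an unadjusted p under 0.05, against 14.5% of all genes. Over all genes 0.511% were called lower and 0.412% higher. The lists were chosen with earlier results of these data known, so their calls are a description and no independent test. Some of these markers read near the bottom of the scale in the mutant-labelled arrays, with 1.12 as the lowest value of Klra7 and 4.37 as that of Pax5. No marker of these 4 lists read 0 on any array, but dim probe sets also read above 0, so this does not show that the cells were present. The part of these cells in the differences of Gal, Resp18, Syp and Qpct was not tested.

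Markers of neurons and Schwann cells, which could carry neuropeptide RNA in nerve fibres, gave 0 calls by limma among 13 and 5 measured genes, and 0 had an unadjusted p under 0.05. The summed signal of the neuron markers ran from 573 to 652 in mutant-labelled arrays, against 578 to 642 in wild type, and Stmn2 and Gap43, both of growing neurons, were the only ones with a mean of 100 or more over all arrays. The summed signal of the Schwann cell markers ran from 119 to 137 in mutant-labelled arrays, against 77.1 to 95.1 in wild type, all at low signals. Club cell markers (4 measured), type 2 cell markers (4) and mesothelial markers (7) gave 0 calls by limma. An unadjusted p under 0.05 was found in 2 club cell markers and in 0 of the others, against 14.5% of all genes. Their summed signals ran from 39506 to 45206 (club), 54759 to 59633 (type 2) and 2326 to 3750 (mesothelial) in mutant-labelled arrays, against 33199 to 41640, 45806 to 54158 and 2394 to 3138 in wild type, in the same order. Of 7 fibroblast markers 1 was called higher, Col1a1, against 0.412% of all genes, and 4 had an unadjusted p under 0.05, against 14.5%. Their summed signal ran from 32973 to 36458 in mutant-labelled arrays, against 15791 to 27099 in wild type.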

How the data were processed

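The values deposited by the authors are linear probe-set intensities from 6 arrays. Per the submitters' processing notes they were made in Expression Console 1.1 of Affymetrix; how probes were summarized is not given in the sources used here. The trimmed mean of each array, leaving out 2% at either end, lay between 500.0023 and 500.0025, so a shift of all genes together cannot be seen. From 45101 probe sets, 64 controls were left out. The platform annotation gave 34945 of the others 1 symbol, 932 several and 9160 none, and the Entrez number of 34741 was found in RefSeq. For 9010 genes with several probe sets, the one with the highest mean log2 value stood for the gene. Values were turned to log2(signal + 16).

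Genotypes were compared with lmFit and eBayes of limma 3.58.1 (R 4.3.3, no covariate, prior of 2.93 degrees of freedom) and Benjamini-Hochberg adjustment over 18193 genes, with calls at an adjusted p under 0.05. The code was tested on simulated data. The members and the 18 gene lists were chosen with earlier results of these data known. Named were the members, the called genes, up to 4 with the smallest p and up to 2 with the highest signal of each list, Galr1, Galr2, Galr3, Insm1, Nkx2-2, Rest, Pcsk1, Pcsk2 and Bmi1, and the nearest 5 to Gal and 3 to Resp18. Upstream sequences are RefSeq's on GRCm38.p6, matched by symbol for 8 of 8 measured members. Alternatives were other offsets, scalings, probe-set rules, a dim filter, another variance prior, the replicate number as a block and leaving out each array. Figures were drawn with matplotlib 3.10.9.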

Additional observations from a re-analysis of the deposited data

How the results depend on the processing

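As reported, 75 of 18193 genes were called higher and 93 lower. Offsets gave 16 and 22 (offset 1) or 120 and 144 (offset 64), median centring 120 and 88, the filter on a mean signal of 100 gave 145 and 163, and a trended, robust variance prior 213 and 225. Leaving out an array gave 1 to 35 genes higher and 1 to 41 lower. The pairs of counts were 10 and 13, 22 and 39, and 35 and 41 without mutant-labelled replicates 1, 2 and 3, and 34 and 31, 1 and 1, and 3 and 5 without wild-type replicates 1, 2 and 3. Deviations of same-numbered arrays correlated at 0.0735, 0.0485 and 0.0319. Those of arrays with unlike numbers were not computed, so these values cannot settle whether the replicate numbers pair the samples. With the replicate block limma called 0 genes in either direction, hence 0 members and 0 neuroendocrine list genes, while 2611 genes had an unadjusted p under 0.05, against 2647 without the block.

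Members called lower numbered 2 as reported. They numbered 1, Gal, with an offset of 1, quantile normalization, median centring, every probe set as its own feature, and the dim filter, under which Resp18 was not tested. Leaving out an array gave 0 to 1, and it was 0 without wild-type replicate 2. Members called higher numbered 0 in every setting run. Neuroendocrine list genes called higher numbered 1, or 2 with median centring (Nkx2-2 and St18), and 1 to 2 when an array was left out (2, with Pyy, without mutant-labelled replicate 2). Those called lower numbered 1, or 0 with an offset of 1, and 0 to 1 when an array was left out. Nkx2-2 was called in 13 of 14 other settings. Log2 differences of a few uncalled genes changed sign. With median centring Calcrl was 0.068 and Chil3 0.080, and Car4 also turned above 0. Leaving out an array gave -0.19 to 0.10 for Calcrl, -0.13 to 0.065 for Chil3, -0.13 to 0.27 for Ramp2, -0.041 to 0.62 for Scg3 and -0.10 to 0.29 for Stmn2. The sign of Chga turned to -0.19 without mutant-labelled replicate 2 and to -0.23 without wild-type replicate 2. In every setting in which they were tested, Gal, Resp18 and Syp stayed below 0 and Scg5 and Uchl1 above 0. The causes were not tested.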

Other observations

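A few peptide genes were bright on a single array, and these were chosen after their values were seen. Iapp, the precursor of the islet hormone amylin, read 425, 59.4 and 38.0 in mutant-labelled arrays, against 34.9, 15.2 and 34.9 in wild type, so its mean difference of 1.49 (limma adjusted p = 0.426) came mainly from mutant-labelled replicate 1. Nts, the neurotensin precursor, read 85.4, 123 and 62.0 in mutant-labelled arrays, against 216, 40.5 and 50.8 in wild type. Its brightest array was wild-type replicate 1, which also gave the highest wild-type signal of Chga, Chgb, Scg2, Scg5 and Grp. Over the 102 measured genes of the 7 neuroendocrine lists, 34 had their highest wild-type signal on that array and 36 on replicate 3, so replicate 1 did not stand out over the lists.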
